A study of Rattus norvegicus with 241 samples.

Results

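Cycling cells of the sorted rat mammary epithelium were taken as the cells with UMIs (unique molecular identifiers, each counted as 1 RNA molecule) of at least 2 of the 3 genes MKI67, TOP2A and CDK1. They numbered 2475 of the 56528 sorted cells (4.38%) in 30 libraries. Of these, 145 were among 9880 ACI basal cells (1.47%), 129 among 6882 ACI luminal cells (1.87%), 814 among 15982 SD basal cells (5.09%) and 1387 among 23784 SD luminal cells (5.83%). A total of 1124 cycling cells, 45.4% of all, came from the luminal libraries of only 2 SD rats, rats 11 and 12. Since measured UMIs of the 3 genes chose the cells, the levels of these genes are described below with no test.

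Virgin female rats of the inbred ACI strain and the outbred SD (Sprague Dawley) strain received vehicle or 75 mg/kg of TGFBRi, which blocks the kinase of the TGFβ type I receptor (LY22157299 in the labels), by gavage in 2 doses per day for 10 days, and mammary glands were collected at day 0, when treatment stopped. The first dose was given at 35 days of age in ACI and 24 days in SD rats, so that strain and age cannot be told apart. CD24+CD29high basal and CD24+CD29low luminal cells, sorted without CD31+ and CD45+ cells, were sequenced for 3 vehicle (rats 7, 8 and 9) and 3 TGFBRi (rats 12, 15 and 16) ACI rats and for 3 vehicle (rats 1, 2 and 3) and 6 TGFBRi (rats 9 to 14) SD rats. Whole glands of 3 vehicle and 6 TGFBRi SD rats were sequenced without a sort, in a separate set of libraries and with another kit, and no link between their numbers and those of the sorted rats is assumed.

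MKI67 encodes Ki-67, a protein of the surface of mitotic chromosomes that is lost from resting cells. TOP2A encodes the topoisomerase that untangles replicated DNA, and CDK1 the kinase that drives entry into mitosis. Transcripts of such genes are held low by the DREAM complex in resting cells and rise from S phase to mitosis under B-MYB and FOXM1. These factors act through the cell cycle genes homology region (CHR), in promoters that often hold CCAAT boxes as well, whereas genes of replication are mainly released by E2F factors at G1/S. A rule on these genes picks cells in S, G2 and M phase and misses most cells in G1. In the peripubertal mammary gland dividing cells are concentrated in the terminal end buds, which hold basal (cap and myoepithelial) and luminal layers.

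The promoters of the 3 genes are shown because the choice of the cells rests on them, as the 250 bases before the annotated start in RefSeq on build GRCr8, in the direction of transcription: Mki67 at chr1:199952594-199952843 (minus strand), Top2a at chr10:84473094-84473343 (minus strand) and Cdk1 at chr20:19265043-19265292 (plus strand). Capitals mark matches to the CHR (TTTGAA or TTCGAA), the CCAAT box (CCAAT) and an E2F site (TTTGGCGC, TTTCCCGC, TTTGCCGC or TTTCGCGC), searched on both strands.
Mki67: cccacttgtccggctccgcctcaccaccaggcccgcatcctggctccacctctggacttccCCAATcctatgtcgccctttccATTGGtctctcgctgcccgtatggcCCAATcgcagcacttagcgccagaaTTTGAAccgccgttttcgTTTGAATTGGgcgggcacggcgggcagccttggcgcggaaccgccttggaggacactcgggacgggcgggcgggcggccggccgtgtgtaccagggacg
Top2a: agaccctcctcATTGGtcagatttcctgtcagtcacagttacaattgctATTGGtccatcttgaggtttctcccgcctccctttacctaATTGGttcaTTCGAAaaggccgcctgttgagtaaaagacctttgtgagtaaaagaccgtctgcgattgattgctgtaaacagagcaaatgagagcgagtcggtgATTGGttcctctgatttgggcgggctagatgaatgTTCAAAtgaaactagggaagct
Cdk1: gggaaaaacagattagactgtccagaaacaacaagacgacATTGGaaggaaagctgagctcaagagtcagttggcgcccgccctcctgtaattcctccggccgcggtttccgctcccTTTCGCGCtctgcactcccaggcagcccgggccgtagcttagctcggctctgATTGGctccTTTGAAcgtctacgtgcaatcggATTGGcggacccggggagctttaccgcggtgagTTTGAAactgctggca
Mki67 held 2 CHR matches, 117 and 99 bases before the start, and 4 CCAAT matches, of which the last shares a base with the second CHR. Top2a held CHR matches 152 and 22 bases before the start, and Cdk1 at 72 and 16 bases, each with several CCAAT matches, and Cdk1 alone held an E2F match. CHR matches were found in 17.4% of all 33469 RefSeq promoters of this length, CCAAT matches in 34% and both in 6.31%. Of 48 promoters of 46 matched G2/M genes (of 53 on the list), 54.2% held a CHR, 68.8% a CCAAT box and 45.8% both, and none an E2F site. Of the promoters of 23 matched replication genes (of 26), 17.4% held a CHR, 65.2% a CCAAT box and 34.8% an E2F site, against 1.73% of all promoters. CCAAT matches were also more frequent than in all promoters in small lists outside the cell cycle, with 58.3% of 12 luminal progenitor, 45.5% of 11 quiescence and 44.4% of 9 basal marker promoters. A match is a run of letters and was not tested for binding.

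The libraries held 563 to 3853 sorted cells and 4517218 to 45501762 UMIs. Cycling cells were deeper than the others, with medians of 18706 against 5958 UMIs per cell in ACI basal, 23731 against 9152 in ACI luminal, 16284 against 6576 in SD basal and 18906 against 7525 in SD luminal cells, and the ratio within a library lay between 1.77 and 3.76. A cell with more UMIs also has more chance to show each of 3 genes, so depth is part of what the rule uses, and the lower levels below are relative to the cell's other RNA. Of the barcodes shared between libraries (35 in ACI and 216 in SD), 0 were cycling in both libraries of a pair, and those cycling in only 1 were not counted. Doublets were not removed, and 12, 4, 47 and 153 cycling cells of ACI basal, ACI luminal, SD basal and SD luminal cells were among the 6% of each library with the highest Scrublet doublet scores.

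MKI67 UMIs were found in 98.6%, 99.2%, 96.7% and 94.2% of the cycling cells of ACI basal, ACI luminal, SD basal and SD luminal libraries, and in 2.94% to 5.14% of the other cells, which also give the background that free RNA and cells with 1 rule gene make up. For TOP2A these shares were 75.9%, 77.5%, 87.2% and 76.1% against 0.237% to 0.705%, and for CDK1 84.8%, 86.8%, 86.2% and 93.1% against 0.755% to 2.06%. All 3 genes were present in 59.3%, 63.6%, 70.1% and 63.4% of the cycling cells. A cycling cell held on average 24.5 MKI67 UMIs in ACI basal, 28.4 in ACI luminal, 8.71 in SD basal and 7.01 in SD luminal cells, but 3.00, 4.37, 3.45 and 4.43 CDK1 UMIs. At the edge of the rule, the 59, 47, 243 and 508 cells with exactly 2 genes held 29.2, 22.5, 35.5 and 35 UMIs of the G2/M list per 10000, while the 731, 301, 1023 and 1234 cells with exactly 1 gene held 12.2, 12.5, 16.0 and 17.8. Cells with none held 10.4, 8.42, 11.8 and 10.1, and cells with all 3 held 92.6 in ACI basal, 78.3 in SD basal and 70.7 in SD luminal cells and more than any of these in ACI luminal cells, so cells with 1 gene lay nearer to those with none, and cells with 2 between them and the full set.

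The cycling cells carried the markers of their sort, which was in part fixed beforehand, since the authors had removed cells that clustered with the other sort or lacked keratin reads. By summed UMIs of basal and luminal marker lists, 145 of 145 cycling ACI basal cells were led by basal markers, 129 of 129 ACI luminal and 1387 of 1387 SD luminal cells by luminal markers, and 802 of 814 SD basal cells by basal markers. Of the remaining 12 SD basal cells, 2 were led by luminal, 6 by fibroblast and 4 by endothelial markers, and 3 of those 4 came from TGFBRi rat 14, whose 17 cycling cells held 16.6 endothelial marker UMIs per 10000 against 1.52 in its other basal cells. PLVAP, an endothelial diaphragm protein, reached 1050 CPM (UMIs of a gene per 1000000 UMIs) in these 17 cells and 83.3 in the other cells of the library. No cell of any sorted table held a UMI of PTPRC, on which the authors had filtered.

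How many cells were cycling was first compared between treatments. In ACI basal cells, 1.66%, 0.488% and 1.04% were cycling in vehicle rats 7, 8 and 9 and 2.48%, 2.65% and 0.699% in TGFBRi rats 12, 15 and 16. Among luminal cells the shares were 3.19%, 0.791% and 1.45% in the vehicle rats and 2.51%, 2.56% and 0.621% in the TGFBRi rats, in the same order. Rat 16 was the lowest of the TGFBRi rats in both sorts and rat 7 the highest of the vehicle rats, and the groups overlapped. The mean difference was 0.880 percentage points (1.94% ± 1.08 against 1.06% ± 0.588, SD, n = 3 each) in basal cells (exact permutation test, two-sided, p = 0.300) and 0.0857 points in luminal cells (1.90% ± 1.11 against 1.81% ± 1.24, exact permutation p = 1.00), in a design whose smallest p is 0.100.

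The SD rats varied far more. In basal cells, 1.04%, 3.79% and 0.317% were cycling in vehicle rats 1, 2 and 3, and 6.03%, 5.92%, 12.7%, 11.2%, 1.07% and 0.462% in TGFBRi rats 9 to 14. In luminal cells, the vehicle rats had 0.358%, 0.985% and 0.05%, the last being 1 cell, and the TGFBRi rats had 1.09%, 5.02%, 20.4%, 14.8%, 4.05% and 0.407%. Rats 11 and 12 were the highest in both sorts, whereas TGFBRi rats 13 and 14 lay within the vehicle range in basal cells and rat 14 also in luminal cells. The mean was 6.22% ± 5.02 (SD, n = 6) against 1.72% ± 1.83 (n = 3) in basal cells, a difference of 4.50 points (exact permutation p = 0.167), and 7.63% ± 8.11 against 0.464% ± 0.476 in luminal cells, a difference of 7.17 points (exact permutation p = 0.107), where the smallest p is 0.0119. On a log2 scale the luminal difference was 3.84 (exact permutation p = 0.0476), and over the 11 comparisons of shares no adjusted p was below 0.481.

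**Figure D1:**
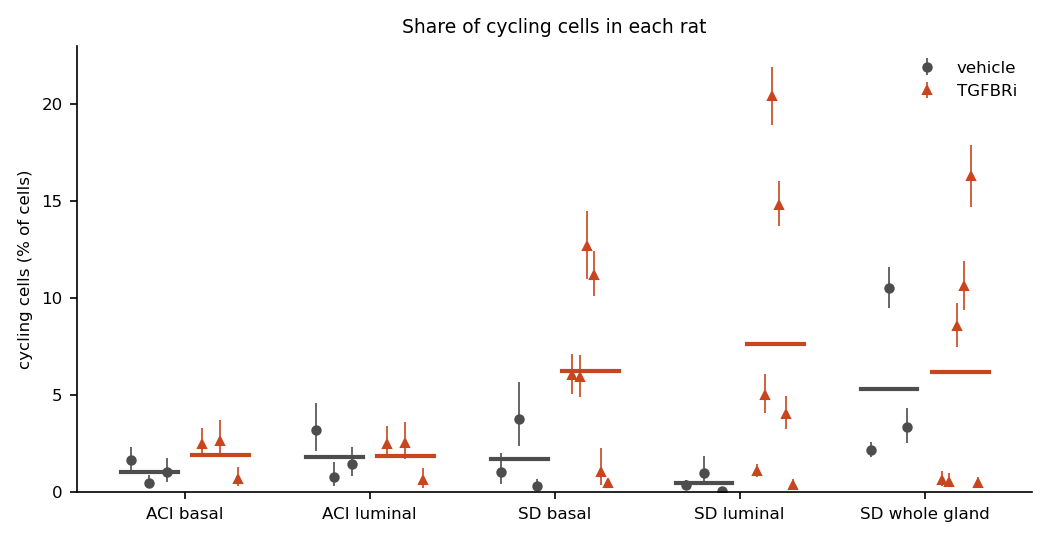
Percent of cells that were cycling (y axis) in each rat, by sort, strain and treatment, with whole-gland epithelial cells of SD rats at the right. Each point is 1 rat with its 95% exact binomial interval, which covers counting error only, and horizontal lines are group means. SD luminal TGFBRi rats ran from 0.407% to 20.4%, while the 3 vehicle rats lay at or below 0.985%.

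The shares of the whole-gland epithelial cells, 24435 cells of which 1352 met the same rule, were 2.17%, 10.5% and 3.35% in vehicle rats and ran from 0.481% over a median of 4.60% to 16.3% in the 6 TGFBRi rats. Here the TGFBRi rats lay on both sides of the vehicle rats, with means of 5.35% ± 4.51 and 6.18% ± 6.66 (exact permutation p = 0.917). Thinned to one depth (3000 UMIs in ACI, 3500 in SD sorted and 1000 in whole-gland cells), the vehicle and TGFBRi means became 0.579% and 1.17% in ACI basal, 1.12% and 1.05% in ACI luminal, 0.789% and 4.09% in SD basal, 0.240% and 3.72% in SD luminal and 0.610% and 0.807% in whole-gland cells. This left out 634 vehicle and 334 TGFBRi cells in ACI basal, 43 and 143 in ACI luminal, 719 and 1507 in SD basal, 838 and 672 in SD luminal and 555 and 868 in whole-gland libraries.

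SD rats with a high share of cycling basal cells had a high share of cycling luminal cells. This relation was examined only after the shares had been seen, so its p-values are not those of a planned test. Across the 9 SD rats the basal and luminal shares had Pearson's r = 0.900 (permutation p = 0.00274, adjusted over both strains 0.00548) and Spearman's rho = 0.900 (permutation p = 0.00203, adjusted 0.00406). Without rats 11 and 12, whose luminal shares lay farthest from the median, r was 0.433 (exact permutation p = 0.367) and rho 0.786 (p = 0.0480), so the linear relation rested on these rats. Within the 6 TGFBRi rats r was 0.885 (exact permutation p = 0.025) and rho 0.83 (p = 0.0583), and the 3 vehicle rats were too few for a value. In the 6 ACI rats r was 0.815 (exact permutation p = 0.0764) and rho 0.771 (p = 0.103), and r was 0.994 (exact permutation p = 0.0417) in the 4 rats left without the 2 farthest. Over cells thinned to one depth r was 0.595 (exact permutation p = 0.199) in ACI and 0.884 (permutation p = 0.00225) in SD rats. Libraries of 1 rat share the animal, and whether they were handled together is not given in the sources used here.

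**Figure D2:**
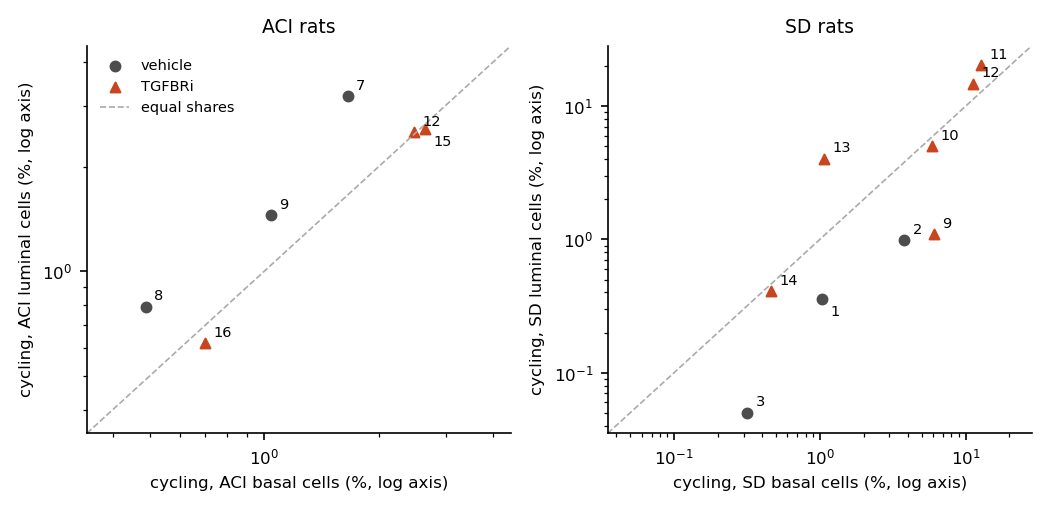
Percent of cycling luminal cells (y axis) against percent of cycling basal cells (x axis) in each rat, both axes logarithmic, for ACI and SD rats; numbers are rats, colours are treatments and the dashed line marks equal shares. SD rats 11 and 12 are at the upper right, with luminal shares of 20.4% and 14.8% above their basal shares of 12.7% and 11.2%.

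Neither lineage held the higher cycling share throughout. Basal minus luminal shares within a rat were −1.53, −0.303 and −0.413 points in the ACI vehicle rats and −0.0314, 0.0891 and 0.0782 in the TGFBRi rats. In the SD rats they were 0.686, 2.80 and 0.267 in vehicle rats and 4.93, 0.894, −7.70, −3.67, −2.98 and 0.0558 in TGFBRi rats 9 to 14. The cycling share was higher in basal cells in all 3 SD vehicle rats and in luminal cells in all 3 ACI vehicle rats. The paired difference over all rats did not pass in ACI (mean −0.352, exact permutation p = 0.219) or SD rats (−0.524, p = 0.727). The effect of TGFBRi on this difference was 0.794 points in ACI (exact permutation p = 0.100, the smallest possible) and −2.66 in SD rats (exact permutation p = 0.333). Between the vehicle rats of the strains, ACI shares were lower by 0.653 points in basal cells (a difference of −0.653, exact permutation p = 0.800) and higher by 1.35 points in luminal cells (exact permutation p = 0.200).

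Gene expression of cycling cells was compared with that of the other cells of the same library, after summing UMIs over cells for rats with at least 10 cycling cells, by edgeR's quasi-likelihood test with the rat as a block and the 3 rule genes left out. The cells were chosen by RNA of the same libraries, so the calls describe the chosen cells and are not an independent test of the choice. Of 13959 genes tested in ACI basal cells (5 rats), 18.3% passed an adjusted p of 0.05, 8.46% higher and 9.86% lower in cycling cells. The 2557 calls became 1605 without vehicle rat 7. For ACI luminal cells (4 rats), 26.2% of 13468 genes passed, 11.7% higher and 14.5% lower. In SD basal cells (6 rats) 25.7% of 14323 passed, 11.7% higher and 14.0% lower, and in SD luminal cells (7 rats) 33.6% of 14449, 15.0% higher and 18.7% lower. The median log2 fold change of all genes was −0.11, −0.14, −0.10 and −0.11, so the values below stand against a shift of that size. Without the rat as a block, 1225, 1539, 992 and 1466 genes passed in these sorts. Higher in all 4 sorts were 766 of the 12490 genes tested in each, which is 64.9% of the genes higher in ACI basal and 35.4% of those higher in SD luminal cells; 458 were lower in all 4. In the following, a series of 4 values gives ACI basal, ACI luminal, SD basal and SD luminal cells in that order, and fold changes are on the log2 scale. Matched depth means the same test against up to 5 other cells of the library per cycling cell, those nearest in total UMIs. Their median depth was 0.984 to 1.00 times that of the cycling cells in ACI luminal, 0.697 to 1.00 in ACI basal, 0.617 to 0.862 in SD basal and 0.490 to 1.00 in SD luminal libraries. In SD luminal rat 11 all 2157 other cells were taken, so that depth was not matched there, and in rat 12 2860 of 3281 were taken. For these 2 rats the SD luminal values at matched depth largely repeat the unmatched comparison. In other SD libraries with many cycling cells the match was partial. Where a gene named as lower was no longer called at matched depth, that is stated beside it.

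Genes of DNA replication were higher nearly throughout. These and the other cell cycle lists rise with the genes that chose the cells, so their counts describe what the choice selected and are no independent result. Of the 42 S phase genes tested, 39, 42, 41 and 42 were higher, with median changes of 2.24, 2.46, 2.22 and 2.26. Of the 26 genes that load and run the replication fork, 25, 26, 26 and 26 were higher. MCM10, which activates the replicative helicase, differed by 5.05, 5.92, 3.65 and 4.04, and MCM5, a subunit of that helicase, by 2.53, 4.19, 2.36 and 2.73. PCNA, the sliding clamp of DNA polymerases, differed less in basal (0.49 and 0.96) than in luminal cells (1.83 and 1.62), and the difference between sorts was not tested. All 8 genes of nucleotide supply were higher in each sort, among them RRM2, the small subunit of ribonucleotide reductase (4.67, 6.88, 5.39 and 5.52), and DUT, which keeps uracil out of DNA (2.04, 2.80, 2.37 and 2.75).

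Among the cell cycle lists, those of G2/M, mitotic kinases and the spindle had the largest medians. Of 49 G2/M genes tested, 48, 49, 49 and 49 were higher (medians 5.13, 5.20, 4.48 and 4.57), and 26 of 27 spindle and cytokinesis genes were higher in each sort (medians 5.96, 5.98, 5.13 and 5.22). CENPF, a kinetochore protein of G2 and M phase, had mean levels of 726, 694, 344 and 379 CPM in cycling and 9.38, 7.28, 15.4 and 6.67 CPM in other cells. Of 13 mitotic kinase and checkpoint genes, 13, 12, 13 and 12 were higher. WEE1, the kinase that holds CDK1 inactive, was lower in SD luminal cells (−0.29) and at −0.13 in ACI luminal cells did not pass. PLK1 was at 5.38, 7.01, 4.93 and 5.84, AURKB of the chromosomal passenger complex at 7.06, 6.48, 6.28 and 5.58 and TTK of the spindle checkpoint at 8.16, 6.54, 6.24 and 5.76. UBE2C, the ubiquitin conjugating enzyme of the anaphase promoting complex, had the largest change of the genes with at least 100 UMIs that were higher in every rat in ACI basal (9.00 ± 0.23 SE) and SD luminal cells (6.54 ± 0.34). In ACI luminal cells CDCA3, a trigger of mitotic entry, led with 8.27 ± 0.32, and in SD basal cells MASTL, the Greatwall kinase, led with 7.13 ± 0.29. TUBA1C was the spindle gene that did not pass (0.05, 0.15, 0.22 and 0.20), though at matched depth it was higher in the SD sorts (0.35 and 0.30), beside TUBA1B at 1.91, 2.25, 2.20 and 2.20.

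STMN1, a microtubule destabiliser, was among the most abundant of these transcripts. Its level in ACI basal cells was 1335, 1969 and 1034 CPM in the cycling cells of vehicle rats 7, 8 and 9 and 1564 and 1018 in TGFBRi rats 12 and 15, against 197, 210, 192, 189 and 191 in the other cells. ACI luminal levels were 953 and 869 in vehicle rats 7 and 9 and 1442 and 1133 in the TGFBRi rats, against 64.7, 52.9, 111 and 98.5. In SD cells the cycling levels ran from 1695 over a median of 1971 to 2747 in basal (other cells 185, 333 and 698) and from 1281 over 1452 to 1960 in luminal cells (70.8, 143 and 407). Cycling and other cells did not overlap in any sort. The log2 changes were 2.68 ± 0.10, 3.54 ± 0.10, 2.32 ± 0.13 and 2.85 ± 0.26 (SE, edgeR adjusted p = 1.0e-152, 1.1e-41, 3.9e-10 and 6.4e-07).

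**Figure D3:**
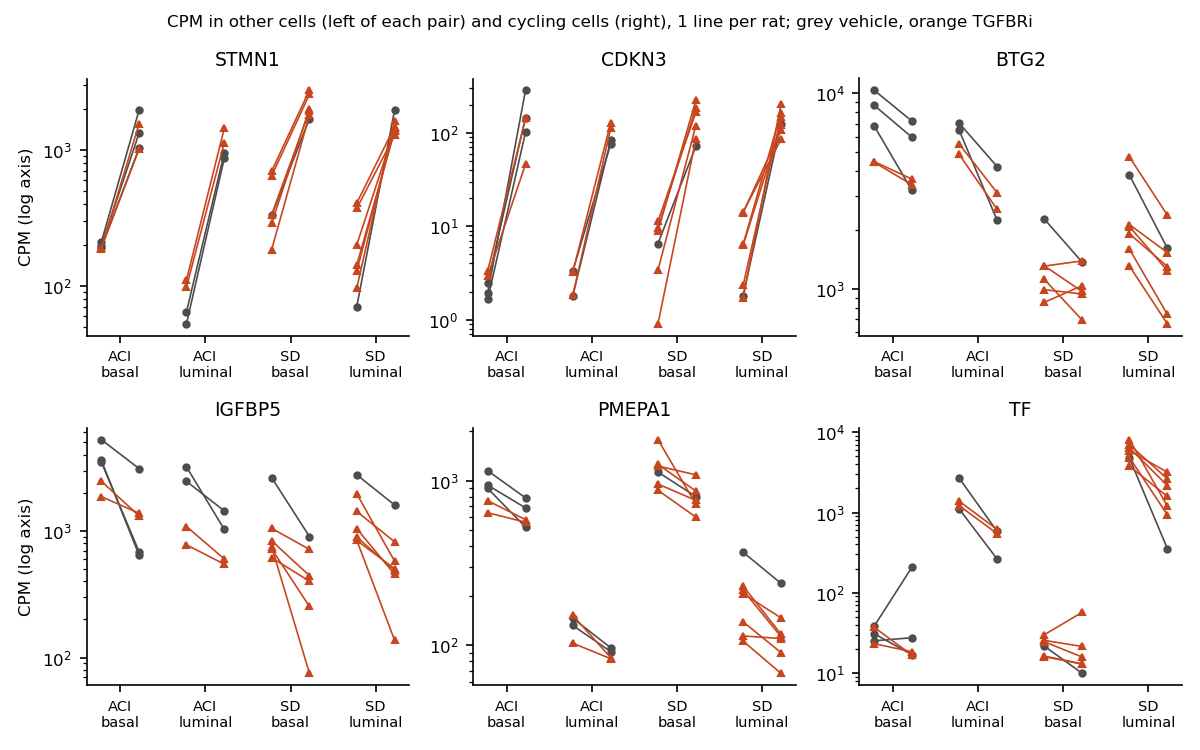
Levels of STMN1, CDKN3, BTG2, IGFBP5, PMEPA1 and TF in CPM (log axis) in the other cells (left of each pair) and the cycling cells (right) of each rat, joined by a line, by sort; grey circles are vehicle and orange triangles TGFBRi rats. STMN1 and CDKN3 were higher and IGFBP5 and PMEPA1 lower in the cycling cells of every rat shown.

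Of 15, 14, 15 and 15 cyclins and CDKs tested, 11, 11, 10 and 12 were higher and 0, 1, 1 and 0 lower. CCNA2 and CCNB1, the cyclins of S phase and mitosis, differed by 5.89, 8.11, 4.75 and 5.59 and by 6.12, 6.28, 4.66 and 5.22, and CCNE1 of the G1/S step by 2.03, 5.24, 1.82 and 3.38. CCND1, the cyclin D of mammary G1, was higher in ACI basal cells (0.42), though not at matched depth (0.11), and did not pass in the others (−0.09, 0.09 and 0.14). CDK4 was higher by 0.88, 0.99, 0.72 and 0.78, whereas CDK6 was lower in ACI luminal (−0.66) and SD basal cells (−1.21). MYBL2, which encodes B-MYB, differed by 5.44, 6.69, 4.49 and 4.63 and FOXM1 by 3.31, 3.05, 3.47 and 3.06. RB1, the restriction point brake, was lower in the luminal sorts (−0.89 and −0.52), in SD luminal cells not at matched depth.

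**Figure D4:**
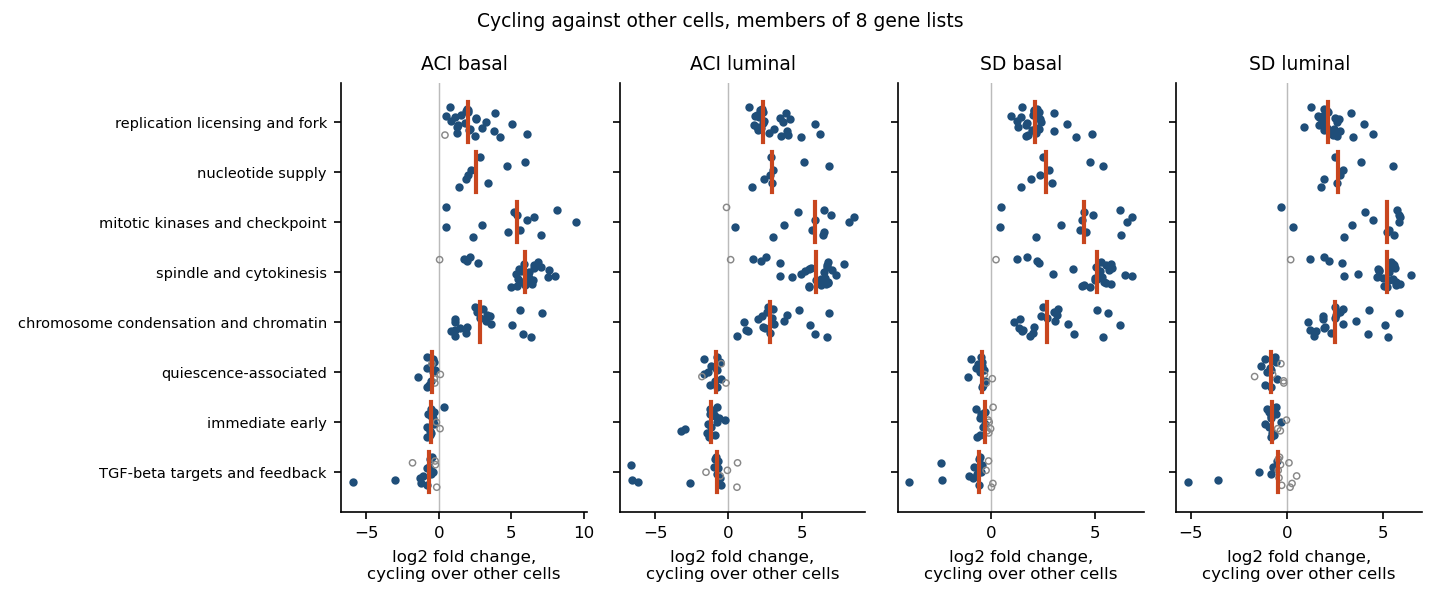
Log2 fold change of cycling over other cells (x axis) for every tested gene of 8 lists (rows), by sort; filled points passed an adjusted p of 0.05, open points did not, and orange bars are list medians. Spindle genes lay at medians of 5.96, 5.98, 5.13 and 5.22 and genes of TGFβ response at −0.67, −0.79, −0.62 and −0.44. Among the points far to the left, COL1A1 had few UMIs in cycling cells of the ACI and SD luminal sorts. In SD basal cells it was not so scarce, with 0.888 UMIs per cycling cell.

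The CDK inhibitors did not move as 1 group. CDKN1A, which encodes p21, was lower (−0.47, −0.59, −0.32 and −0.30), though in SD luminal cells not at matched depth, and CDKN1B, which encodes p27, did not pass in any sort (0.04, 0.07, 0.03 and 0.14). CDKN2C, which encodes p18, was higher by 2.36, 2.43, 1.89 and 1.86, and CDKN3, a phosphatase of CDKs that peaks in mitosis, by 5.56, 5.02, 4.33 and 4.04. CDKN3 levels ran from 46.4 CPM in rat 15 over a median of 143 to 287 CPM in rat 8 in the cycling cells of ACI basal libraries, and from 1.65 to 3.32 CPM in the other cells. CDKN1C, which encodes p57, was higher in the basal sorts (0.51 and 0.42), while −0.43 and −0.67 in the luminal sorts did not pass.

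Many genes linked with rest and with stress were lower relative to the other RNA. Of 15 genes associated with quiescence, 11, 12, 12 and 10 were lower and none higher (medians −0.48, −0.84, −0.44 and −0.80). The counts were 10, 11, 8 and 10 at matched depth and 4, 7, 1 and 5 without the rat as a block. KLF9, a glucocorticoid-induced repressor, was lower in every rat of every sort (−0.80, −0.84, −0.74 and −0.87) and at matched depth (−0.65, −0.70, −0.64 and −0.70). BTG2, an antiproliferative target of p53, had 3187, 5957 and 7204 CPM in cycling cells of ACI basal vehicle rats and 3637 and 3410 in TGFBRi rats, against 6823, 8679, 10361, 4477 and 4438 in the other cells. In that sort all 5 rats were lower, but rats differed more from each other than the cells within a rat. Its changes were −0.66, −1.23, −0.41 and −1.13, and −0.06 at matched depth in SD basal cells did not pass. Of 15 immediate early genes, 12, 15, 9 and 12 were lower and 1, 0, 0 and 0 higher (medians −0.53, −1.17, −0.32 and −0.76). At matched depth 9, 13, 5 and 11 were lower and 1 was higher in SD basal cells, where the median was 0.01 (the others −0.38, −1.05 and −0.58). Without the rat as a block 4, 12, 1 and 6 were lower. FOS (−0.83, −1.17, −0.43 and −0.95) turned to 0.08 in SD basal cells at matched depth. In ACI basal cells it was not lower in TGFBRi rat 12. MYC, a driver of growth, was lower in every rat (−0.55, −1.29, −0.77 and −1.06) and at matched depth (−0.40, −1.17, −0.52 and −0.72). Per cell, however, MYC UMIs were 5.27 in cycling and 2.74 in other ACI basal cells and 1.67 and 1.75 in ACI luminal cells.

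Of 15 basal markers, 12 were lower in ACI basal (median −0.52) and 14 in SD basal cells (median −0.70). The counts were 12 and 13 at matched depth and 7 and 6 without the rat as a block. The contractile genes of myoepithelium were lower by more in SD than in ACI cells, with MYH11, the smooth muscle myosin, at −0.75 ± 0.09 and −1.38 ± 0.11 and TAGLN, an actin binding protein, at −0.82 ± 0.09 and −1.53 ± 0.13, a difference between strains that was not tested. In SD basal cells MYH11 was also lower per cell (12.2 UMIs in cycling and 13.5 in other cells, lower in 4 of 6 rats). In ACI basal cells it was higher per cell in all 5 rats (91.9 against 54.4). TAGLN was at 65.6 against 40.7 UMIs per cell in ACI cells, higher in 4 of 5 rats. In SD cells it was at 26.2 against 33.1, higher in 3 of 6 rats. KRT5, the basal keratin (−0.52 and −0.52), and KRT17 (−0.55 and −0.54) were higher per cell in every rat and lower only relative to the rest. The basal chemokine CXCL14 was at −1.37 and −1.18. ALDH1A3, an aldehyde dehydrogenase of luminal progenitors, was higher in the cycling cells of all 5 ACI (2.11) and all 6 SD basal libraries (0.99), and at matched depth by 1.20 in ACI cells and by 0.40, not called, in SD cells. In ACI basal cells 6 of 12 luminal progenitor markers were higher and 2 lower. These were 4 and 2 at matched depth, 2 and 1 without the rat as a block and 1 higher by DESeq2. KIT and ELF5 came from vehicle rat 9 alone, whose 13 cycling cells held 39.2 CPM of KIT and 27.4 of ELF5 against 0.118 and 0.824 in its other cells, along with 325 against 9.54 CPM of the milk protein gene LALBA.

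SORBS2 and PROCR are markers that the study links with secretory basal cells, a population that this pair of genes does not define by itself. Cells with a UMI of both made up 18.6% of the cycling and 8.84% of the other ACI basal cells, at median depths of 18706 and 5958 UMIs. Thinned to 3000 UMIs, the shares were 1.38% and 2.11%, and 0 cycling and 968 other cells were left out. In SD basal cells they were 2.33% and 3.45%, and thinned 0.252% and 2.06%, with 21 and 2205 cells left out. As levels, SORBS2, a scaffold of actin fibres, was at −0.46 in ACI basal and −2.37 in SD basal cells and PROCR, the protein C receptor, at −0.73 and −0.85, all called. Thinned, only 2 cycling cells carried both genes in each strain.

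In the luminal sorts, 10 of 14 progenitor markers were lower in ACI (median −0.58) and 6 of 14 in SD cells (median −0.34), and of the mature luminal markers 8 of 13 and 9 of 14, with AREG (0.36) and CITED1 (1.06) higher in ACI cells. At matched depth 7 and 3 progenitor markers (medians −0.43 and −0.16) and 8 and 11 mature markers were lower, and AREG was no longer called higher. Without the rat as a block 6 and 1 progenitor and 1 and 2 mature markers were lower. TF, the iron carrier transferrin that secretory luminal cells make, was the clearest. Its ACI luminal levels were 264 and 583 CPM in the cycling cells of vehicle rats 7 and 9 and 547 and 616 in TGFBRi rats 12 and 15, against 1108, 2687, 1218 and 1386 in the other cells. In SD luminal cells cycling levels ran from 356 CPM in vehicle rat 1 over a median of 1587 to 3182, against 3785 to 8098 in the other cells. No cycling value reached any other-cell value of either sort, with changes of −1.87 ± 0.11 (SE, edgeR adjusted p = 1.3e-24) and −2.19 ± 0.26 (adjusted p = 1.3e-05), and −1.55 and −1.80 at matched depth. TF was lower per cell as well, at 12.3 against 20.5 UMIs in ACI and 34.6 against 54.5 in SD cells, in 4 of 4 and 6 of 7 rats. KIT, the receptor of stem cell factor (−1.60 and −0.73), the prolactin receptor PRLR (−1.23 and −1.06), the estrogen receptor ESR1 (−0.77 and −1.05) and the progesterone receptor PGR (−0.72 and −0.68) were lower in both strains. At matched depth they stood at −1.39 and −0.43, −1.25 and −1.15, −0.84 and −1.12, and −0.65 and −0.79, and were called. Per cell, mean UMIs in cycling cells were lower only for KIT in ACI cells (1.23 against 1.62, and 1.04 against 0.780 in SD cells). They were 7.76 against 7.56 and 2.25 against 1.84 for PRLR, though lower in 3 of 4 ACI rats. For ESR1 they were 0.642 against 0.472 and 0.0957 against 0.0820, and for PGR 0.433 against 0.328 and 0.256 against 0.135. Progenitor UMIs made up 75.2%, 77.8%, 77.1% and 87.4% of the luminal marker UMIs in cycling cells of ACI rats 12, 15, 7 and 9 and 81.9%, 82.9%, 71.9% and 85.8% in the other cells, a mean difference of −1.26 points (exact permutation p = 0.875). In SD rats the difference ran from −22.1 points in TGFBRi rat 14 to 13.8 in vehicle rat 1, each with 12 cycling cells. Rats 11 and 12, which hold most cycling cells, were at 2.85 and 4.80 points, and rats 9, 10 and 13 at −8.02, −1.32 and −8.58. The mean was −2.66 (exact permutation p = 0.562). With the milk genes left out of the progenitor markers, a choice made after seeing the data, the means were −11.3 (exact permutation p = 0.125) in ACI and −9.47 (p = 0.203) in SD rats.

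CITED1, a coactivator of estrogen receptor and SMAD4, went against its list in ACI luminal cells. It had 584 and 836 CPM in the cycling cells of vehicle rats 7 and 9 and 886 and 807 in TGFBRi rats 12 and 15, against 338, 225, 357 and 338 in the other cells, with no overlap, a change of 1.06 ± 0.10 (SE, edgeR adjusted p = 1.4e-14) and 0.94 at matched depth. In SD luminal cells it was at 0.18 and did not pass, being higher in 5 of 7 rats and lower in rats 11 and 12, which hold most cycling cells. In those 2 rats the levels were 196 and 231 CPM in cycling and 419 and 322 in other cells.

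Of 17 genes tested that respond to or carry TGFβ signals, 13, 12, 13 and 7 were lower and 0 were higher (medians −0.67, −0.79, −0.62 and −0.44), and at matched depth 13, 11, 13 and 7 were lower and 1 was higher, CCN2 in SD luminal cells (0.57). Without the rat as a block 6, 6, 5 and 2 were lower. Among ACI luminal cells, 2 of these genes had no UMI in cycling cells, and at the bound of 3 counts for them the median was −0.70. PMEPA1, a SMAD-induced inhibitor of the pathway, had 523, 684 and 787 CPM in cycling cells of ACI basal vehicle rats and 580 and 560 in TGFBRi rats, against 898, 940, 1150, 756 and 639. It was lower in the cycling cells of every rat in the 4 sorts (−0.56 ± 0.10, −0.79 ± 0.11, −0.71 ± 0.14 and −0.82 ± 0.11), and so was SKIL, which encodes the SMAD repressor SnoN (−0.82, −0.70, −0.67 and −0.65). SMAD7, the inhibitory SMAD, was at −0.67, −1.0, −0.84 and −0.70 and lower in every rat but TGFBRi rats 13 and 14 in SD luminal cells. All 3 passed at matched depth in each sort, with PMEPA1 at −0.37, −0.55, −0.40 and −0.60. Per cell, PMEPA1 UMIs were higher in cycling cells, 12.6 against 6.69 in ACI basal and 2.22 against 1.69 in SD luminal cells. The receptor TGFBR2 was lower in 3 sorts (−0.63, −0.90 and −0.62) and at −0.44 in SD luminal cells did not pass. The list also holds COL1A1, which fibroblasts make. The cycling cells held 3 UMIs of COL1A1 in ACI basal and 2 in ACI luminal cells, a ratio of levels of 0.0235 (95% exact interval 0.00484 to 0.0687) and 0.0189 (0.00228 to 0.0683) to the other cells, beside 1 and 0 UMIs of COL3A1. In the other SD basal cells fibroblast markers reached 89.6 UMIs per 10000 in vehicle rat 2, against 0.347 in its cycling cells.

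IGFBP5, which binds IGF and rises at involution of the gland, was lower in every rat of every sort. Its ACI basal levels were 683, 642 and 3109 CPM in cycling cells of vehicle rats 7, 8 and 9 and 1311 and 1380 in TGFBRi rats 12 and 15, against 3504, 3611, 5260, 2474 and 1866. The ACI luminal levels were 1440 and 1028 in vehicle and 546 and 601 in TGFBRi rats, against 2465, 3211, 777 and 1084. In SD cells, cycling levels ran from 75.0 over 422 to 903 CPM in basal (other cells 615, 795 and 2642) and from 137 over 503 to 1604 in luminal cells (842, 1042 and 2776). The changes were −1.40 ± 0.10, −1.18 ± 0.10, −1.39 ± 0.23 and −1.42 ± 0.19 (SE, edgeR adjusted p = 1.6e-43, 1.0e-15, 2.5e-04 and 3.3e-05), and −0.92, −0.94, −0.94 and −1.07 at matched depth. Per cell the UMIs were close, at 29.4 and 25.3, 27.1 and 27.0, 8.32 and 10.0 and 11.5 and 12.1 in cycling and other cells. IGFBP4, in contrast, was higher in all 5 ACI basal rats (1.24, and 0.66 at matched depth), but 0.05 in SD basal cells did not pass and became −0.40, called, at matched depth. IRS2, an adaptor of the insulin and IGF receptors, was lower in each sort (−0.54, −0.84, −0.49 and −0.42), though in SD luminal cells not at matched depth (−0.25).

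Of the glycolysis genes, PGK1 was higher in each sort (0.82, 1.03, 0.81 and 0.83) and ALDOA, aldolase A, lower (−0.63, −0.48, −1.02 and −0.69), and HK2, hexokinase 2, was lower in 3 (−0.90 in ACI luminal, −0.73 in SD basal and −0.90 in SD luminal cells). Of 13 genes, 4, 6, 1 and 4 were higher and 1, 3, 2 and 2 lower. These shares of lower genes were near those of all genes (9.86%, 14.5%, 14.0% and 18.7%), and so was the share of higher genes in SD basal cells (11.7%). At matched depth 2, 6, 1 and 6 were higher and 1, 2, 3 and 2 lower, and without the rat as a block 1, 2, 1 and 1 were higher. FBLN1, fixed here as a fibroblast marker, was higher in basal cycling cells, at 21.0 against 3.76 CPM in all 5 ACI rats (1.97) and 29.9 against 10.1 CPM in all 6 SD rats (1.46), while the fibroblast collagen COL1A1 had 0.685 against 46.7 CPM in ACI and 51.3 against 1184 CPM in SD basal cells.

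The phase of the cycling cells was read from the share of G2/M UMIs among G2/M and S phase UMIs, which leans on genes that rise with the rule genes. It was 75.8%, 85.2% and 78.6% in ACI basal cells of vehicle rats 7, 8 and 9 and 73.6% and 72.1% in those of TGFBRi rats 12 and 15, against 50.7% to 53.7% in the other cells. The 2 TGFBRi rats were below the 3 vehicle rats, with a difference of −7.02 points (exact permutation p = 0.200, where the smallest possible is 0.100). ACI luminal shares were 70.9% and 74.3% in vehicle and 74.6% and 74.2% in TGFBRi rats (exact permutation p = 0.667). In SD basal cells the 1 vehicle rat with enough cells had 56.1% and the 5 TGFBRi rats 68.9% to 82.3%. This vehicle rat was the only one whose cycling cells lay below its other cells (57.6%). In SD luminal cells 67.6% stood against 69.8% to 76.5% in 6 TGFBRi rats. The smallest possible p are 0.167 in SD basal and 0.143 in SD luminal cells.

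**Figure D5:**
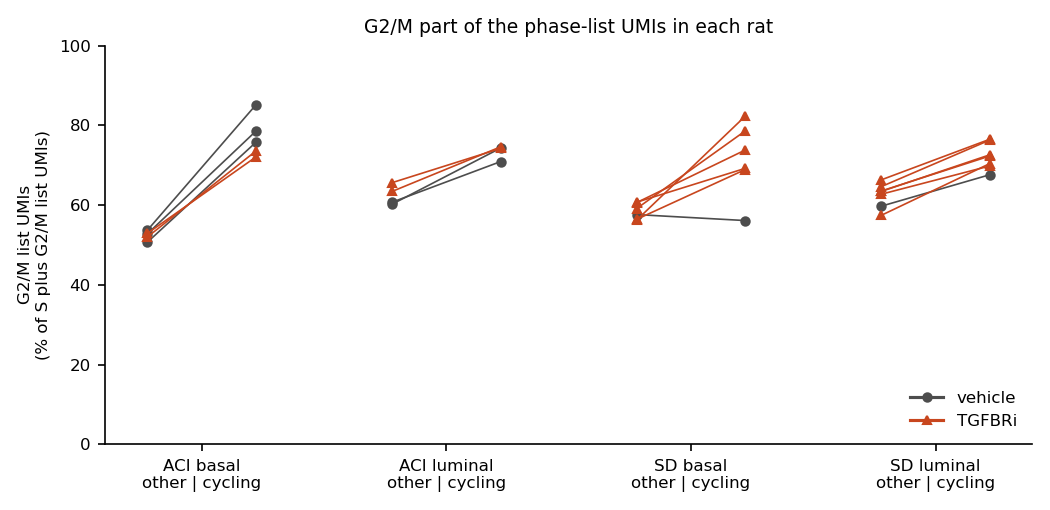
Percent of G2/M UMIs among G2/M and S phase UMIs (y axis) in the other cells (left) and the cycling cells (right) of each rat, joined by a line, by sort; grey circles are vehicle and orange triangles TGFBRi rats. In ACI basal cycling cells the 2 TGFBRi rats, at 73.6% and 72.1%, lie below the 3 vehicle rats.

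TGFBRi was then compared with vehicle within the cycling cells. In ACI basal cells (2 TGFBRi rats with 47 and 32 cells, 3 vehicle rats with 33, 11 and 13 cells), 1.12% of 9835 genes passed, 75 higher (0.763%) and 35 lower (0.356%). CCL7, a monocyte chemokine, had 5.28, 25.3 and 3.92 CPM in vehicle and 73.4 and 43.9 in TGFBRi rats (3.23 ± 0.49, SE, edgeR adjusted p = 4.6e-04). TIMP1, an inhibitor of metalloproteinases, had 25.4, 0 and 7.83 CPM in vehicle and 69.1 and 98.1 in TGFBRi rats (2.38 ± 0.39, adjusted p = 9.2e-04). The cycling cells of all 5 rats held 111 UMIs of CCL7 and 166 of TIMP1, so the vehicle values of both rest on few UMIs. The EGF receptor ligand HBEGF was at 1.73 and CHI3L1, a secreted chitinase-like protein, at 1.60. Lower were genes of mitosis, with ASPM of the spindle pole at 261, 380 and 188 CPM in vehicle and 85.3 and 58.1 in TGFBRi rats (−1.67 ± 0.27, adjusted p = 9.2e-04), and CDC20, the activator of the anaphase promoting complex, at 109, 253 and 74.4 and 56.2 and 25.8 CPM (−1.39 ± 0.35, adjusted p = 0.0328). CTNND1, which encodes p120-catenin, had 92.9 to 164 CPM in vehicle and 32.4 and 37.4 in TGFBRi rats (−1.59 ± 0.32, adjusted p = 0.00626). The other cells of these libraries differed the same way in CTNND1 (121, 126 and 131 CPM in vehicle, 57.3 and 65.7 in TGFBRi rats). So they did in TIMP1 (55.4, 40.4 and 70.4 against 97.2 and 97.1) and HBEGF (38.0, 29.6 and 7.53 against 96.6 and 77.8). For CCL7, CHI3L1, ASPM and CDC20 the groups overlapped in the other cells. Of 49 G2/M genes 10 were lower and 0 higher (median −0.81, against 0.01 for all genes), and of 42 S phase genes none passed (median −0.33). The rule genes themselves had MKI67 levels of 1638, 1884 and 1257 CPM in vehicle and 763 and 706 in TGFBRi rats, and its part in the lower G2/M genes was not tested. Of 14 TGFβ genes tested 1 passed, CCN2, lower (−0.99). With cells that held all 3 rule genes, 0 genes passed, and leaving out 1 rat at a time gave 43 without vehicle rat 7, 39 without rat 8, 201 without rat 9, 9 without TGFBRi rat 12 and 10 without rat 15.

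In ACI luminal cycling cells (2 against 2 rats), 6 of 9832 genes passed (0.0610%), all lower under TGFBRi. EMP1, an epithelial membrane protein, had 204 and 128 CPM in vehicle and 38.6 and 28.1 in TGFBRi rats (−2.24 ± 0.30, SE, edgeR adjusted p = 0.00891). The replication-dependent linker histones HIST1H1D, at 586 and 436 against 161 and 144 CPM, and HIST1H1E, at 1870 and 1422 against 549 and 578 CPM, were at −1.60 and −1.39, and G0S2, an inhibitor of lipolysis, at −1.81. The other 2 were the unnamed loci LOC102549173.4 (−2.10) and AABR07012583.2 (−2.69). The other cells of these libraries differed the same way in HIST1H1D (12.7 and 11.1 CPM in vehicle, 5.23 and 6.17 in TGFBRi rats). So they did in HIST1H1E (125 and 139 against 65.7 and 79.8), G0S2 (111 and 162 against 36.6 and 54.6) and the 2 loci. For EMP1 the groups overlapped in those cells (233 and 185 against 209 and 174). None of 49 G2/M and 42 S phase genes passed (medians −0.03 and −0.17). Leaving out 1 of the 4 rats gave 31 to 68 genes and the rule of all 3 genes 0. In SD cells, where only 1 vehicle rat had 10 cycling cells, 0 of 11613 genes passed in basal and 0 of 12022 in luminal cells by edgeR, with 743 and 1000 at an unadjusted p of 0.05 and 5 and 25 genes by DESeq2. The 1 vehicle rat is assumed there to vary like the TGFBRi rats.

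Whether the effect of TGFBRi differed between cycling and other cells was tested as an interaction. It passed for 59 genes in ACI basal (0.423%), 26 higher (0.186%) and 33 lower (0.236%) in cycling than in other cells, for 58 in ACI luminal (0.431%), 9 higher (0.0668%) and 49 lower (0.364%), for 0 in SD basal and for 5 in SD luminal cells (0.0346%), 1 higher (0.00692%) and 4 lower (0.0277%). In the SD sorts 1 vehicle rat stands for its group, so that rat and the treatment cannot be told apart. In ACI basal cells 11 of 49 G2/M genes had a lower effect in cycling than in other cells (median −1.11), among them CENPF (−1.62 ± 0.22, SE, edgeR adjusted p = 8.9e-10), and FOS had a higher one (1.07 ± 0.15, adjusted p = 8.9e-10). FOS was not higher under TGFBRi in the cycling cells, at 3592, 3169 and 5004 CPM in vehicle and 3366 and 3090 in TGFBRi rats. In the other cells it was lower, at 6962, 10494 and 9050 against 3148 and 3920 CPM. Among ACI luminal cells 1 of 49 G2/M genes passed. DESeq2 called the interaction for 11 genes in ACI basal and 5 in ACI luminal cells, and edgeR with filterByExpr for 28 in ACI luminal cells. Leaving out 1 rat at a time gave 0.152% to 0.732% of genes in ACI basal, 0.190% to 0.403% in ACI luminal, 0 to 0.135% in SD basal and 0.0140% to 0.0423% in SD luminal cells.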

How the data were processed

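The authors deposited UMI counts per gene and cell as 10x matrices. Sorted cells were sequenced with the Chromium 3' v3 kit and aligned to rat build rn6 with Cell Ranger 4.0.0, and whole glands with Cell Ranger 7.0.0, per the labels and the study's methods. In Seurat (4.0.0 and 4.1.1 in the submitters' processing notes) the authors removed cells with few genes or a high mitochondrial share and, for sorted cells only, cells with a PTPRC read, cells with fewer than 2 keratin reads and cells that clustered with the other sort. For whole glands, cells with at least 2 keratin UMIs, at least 1 EPCAM UMI and no PTPRC UMI were taken here as epithelial. Bulk RNA tables of the series were not used here.

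Cycling cells held UMIs of at least 2 of the 3 rule genes. Shares were compared over rats by exact permutation tests, two-sided, with 95% exact binomial intervals, which like all intervals given here cover counting error only. For genes, UMI counts were summed per library over cycling and over other cells of rats with at least 10 cycling cells, and genes with at least 10 UMIs over the sums were fitted with edgeR 4.0.16 (TMM, quasi-likelihood, Benjamini-Hochberg adjustment, threshold 0.05), with the rat as a block between cells of 1 library. The pairing comes from the design, since cycling and other cells of a pair are from 1 library and the basal and luminal libraries of a rat from 1 animal. Rats are separate animals. CPM are UMIs per 1000000 summed UMIs and are not length-scaled, and 3' libraries count ends of transcripts. Strandedness in counting overlapping or antisense genes is not given in the sources used here, and near-identical copies such as the histone genes are uncertain. Named genes were list members and, for each comparison, the 5 genes with the largest change each way among called genes with at least 100 UMIs and the same direction in every rat (for TGFBRi, no overlap of groups). The cells, lists and tests were chosen with earlier results of these data known. Other software was Python 3.11.15, scipy 1.17.1, scanpy 1.11.5 (Scrublet), R 4.3.3, limma 3.58.1 and DESeq2 1.42.0. Each fit was first run on simulated counts with known changes. No libraries of a sort agreed within sampling noise (chi-square per degree of freedom at least 10.7 over 66 pairs within groups).

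The alternatives were DESeq2, other filters on low counts, no replicate block, matched or thinned depth, all 3 rule genes, the 6% highest doublet scores left out, log2 percents and leaving out each rat. Cells of the sorted lineage alone, SD luminal cells without rats 11 and 12, and progenitor markers without milk genes were added after seeing the data. So was the correlation of basal with luminal shares over rats. CCNB2, E2F1, LBR, CDKN2D, IER2, LTF, TNFSF11, PECAM1 and CD79A were not analysed here. Promoters are from RefSeq on GRCr8, matched by symbol, and are separate from the rn6 annotation of the counts.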

Additional observations from a re-analysis of the deposited data

Results flagged for a closer look

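The luminal cells of SD TGFBRi rat 13 stood apart from those of the other TGFBRi rats. Progenitor UMIs made up 72.3% of the luminal marker UMIs of its other cells, against 88.3% to 95.4% in the remaining 5 rats. It was the 1 sample far from its group in 7 groups tested, and chance alone gives such a sample in about 1 of 20 groups.

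The test of whether the effect of TGFBRi differed between cycling and other cells of the same library passed for 59 genes in ACI basal, 58 in ACI luminal and 5 in SD luminal cells (edgeR's quasi-likelihood test with Benjamini-Hochberg adjustment). DESeq2 called 11 genes in ACI basal and 5 in ACI luminal cells. Among the ACI basal genes of least adjusted p by edgeR were milk protein genes and genes of mitosis. The differences of log2 effects were −5.01 for the casein gene CSN1S1 and −6.05 for LALBA, which encodes α-lactalbumin, and these rested on few UMIs: the cycling cells of the 5 rats held 83 and 95 UMIs in all, and those of vehicle rat 9 held 325 CPM of LALBA against 9.54 CPM in its other cells, while vehicle rat 8 had 0 of both genes. PRC1, a protein of the spindle midzone, was at −1.97, with 430, 625 and 360 CPM in cycling cells of vehicle and 265 and 178 in those of TGFBRi rats. CENPF was at −1.62. FOS was at 1.07, where its level was lower under TGFBRi in the other cells and not higher in the cycling cells.

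In ACI luminal cells the milk genes led as well, with differences of −2.81 for CSN3, −6.77 for CSN2 and −1.84 for WAP. CSAP1, which is on no list, was at −1.98 and EMP1 at −2.37. CSN2 had 13.6 and 281 CPM in the cycling cells of vehicle rats 7 and 9 and 1.75 and 1.17 in those of the TGFBRi rats, so the high value was that of rat 9. CSN3 had 3814 and 8095 CPM in cycling cells of vehicle and 649 and 2155 in those of TGFBRi rats. For WAP the groups overlapped in the cycling cells, at 148 and 311 CPM in vehicle and 153 and 201 in TGFBRi rats. In the other cells WAP was higher under TGFBRi, at 302 and 359 CPM against at most 143 in vehicle rats. CSAP1 overlapped too in the cycling cells (332 and 63.9 against 96.5 and 59.6 CPM), where the high value was that of vehicle rat 7.

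In SD luminal cells the differences were −2.43 for PLAC8, −7.06 for MMP7, −2.05 for MIA and −4.25 for FILIP1L, and 1.91 for FOSB. They set the gap between the 12 cycling and the other cells of the single vehicle rat 1 against that of 6 TGFBRi rats. That rat and the treatment therefore cannot be told apart. Its cycling cells held 178 CPM of MMP7 against at most 10.0 in the TGFBRi rats. For PLAC8 and MIA its cycling cells lay within the range of the TGFBRi rats (701 CPM against 337 to 811, and 232 against 117 to 238). There its other cells were the lowest (84.8 CPM against 154 to 570, and 34.7 against 56.4 to 162).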

How the results depend on the processing

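No share of cycling cells passed as a difference of percents, and some of the differences changed sign. Those between TGFBRi and vehicle in ACI basal, SD basal and SD luminal cells kept theirs under every alternative, though their size varied. The ACI luminal difference turned to −0.0727 points at thinned depth, to −0.0126 without the highest doublet scores, and to a negative value without vehicle rat 8 or 9 or TGFBRi rat 12 or 15. The whole-gland difference was −0.763 on the log2 scale, and negative also without TGFBRi rat 6 or 11 or vehicle rat 1 or 4. The SD basal against luminal difference was 0.429 thinned, 0.669 on the log2 scale and 0.373 without TGFBRi rat 11, and the ACI against SD basal difference 0.382 without SD vehicle rat 2. As log2 percents the SD luminal difference had an unadjusted exact permutation p of 0.0476 (3.84), in 1 of 11 comparisons of shares and with 1 cell behind the value of vehicle rat 3.

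Leaving out each rat in turn gave differences of 0.527 to 1.5 points in ACI basal, −0.424 to 0.776 in ACI luminal, 3.21 to 5.66 in SD basal, 4.62 to 8.61 in SD luminal and −1.18 to 3.42 in whole-gland cells. Basal minus luminal shares ran from −0.440 to −0.116 in ACI and from −1.21 to 0.373 in SD rats, and the ACI against SD differences from −1.35 to 0.382 in basal and from 0.657 to 1.86 in luminal cells. The progenitor share difference ran from −3.41 to 0.545 in ACI and from −5.39 to 0.581 in SD rats, positive without ACI rat 12 or 15 or SD rat 14, and it was −11.3 and −9.47 without the milk genes.

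The replicate block mattered most for the cycling against other fits. Without it 1225, 1539, 992 and 1466 genes passed in ACI basal, ACI luminal, SD basal and SD luminal cells, of 2557, 3526, 3687 and 4861. Genes lower in cycling cells then numbered 4, 7, 1 and 5 of the quiescence, 4, 12, 1 and 6 of the immediate early and 6, 6, 5 and 2 of the TGFβ list. Basal markers fell to 7 in ACI and 6 in SD basal cells. Leaving out 1 rat gave 1605 (without vehicle rat 7) to 2469, 2762 to 3230, 2525 to 4370 and 3681 to 4845 genes, DESeq2 1624 in ACI basal cells, and leaving out SD rats 11 and 12 together 3719.

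For TGFBRi in cycling cells the counts of 110 and 6 genes in ACI basal and luminal cells became 58 and 13 by DESeq2, 174 and 161 with no filter, 0 and 0 with all 3 rule genes, and 9 to 201 and 31 to 68 when 1 rat was left out. filterByExpr gave 17 in basal cells, and 3 passed in luminal cells without the highest doublet scores. In SD cells DESeq2 called 5 in basal and 25 in luminal cells, cells of the sorted lineage alone 3 in basal cells, and edgeR 0 when 1 TGFBRi rat was left out. The interaction passed for 0.0788%, 0.0371%, 0.0349% and 0.125% of genes by DESeq2, for 0.244% by filterByExpr and 0.228% with all 3 genes in ACI luminal cells, and in SD basal cells for 0.0186% with no filter and 0.0284% in cells of the sorted lineage. Without 1 rat it passed for 0.152% (without TGFBRi rat 15) to 0.732% (without vehicle rat 9), 0.190% (without TGFBRi rat 15) to 0.403%, 0 to 0.135% (without TGFBRi rat 14) and 0.0140% (without TGFBRi rat 13) to 0.0423%.

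Of single genes, FOS in SD basal cells was 0.08 at matched depth. In ACI basal cells ELF5 and LALBA were −4.64 and −0.70 without vehicle rat 9 and at most 2.91 and 2.44 without another rat, with all 3 rule genes they were −4.68 and −1.71, LALBA was −0.30 by DESeq2, and the interaction of CSN3 was 3.81 with all 3 genes. DESeq2 gave no adjusted p for 12 gene values. The cause of these changes was not tested. Not run were fits without the only SD vehicle rat, the rule of all 3 genes for TGFBRi in SD luminal cells, and log2 percents where a share was 0.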

Other observations

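CD74, the invariant chain of MHC class II, was higher in the cycling ACI luminal cells by 1.71 on the log2 scale, but through vehicle rat 9, where it had 269 CPM in cycling and 7.74 CPM in other cells. Vehicle rat 7 had 8.48 and 13.3 CPM, and TGFBRi rats 12 and 15 had 7.02 and 0 in cycling and 7.67 and 6.78 CPM in other cells. PTPRC was at 0 in these cells, by the authors' filter.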
